A study of Mus musculus with 34 samples.

Results

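The genes described here are 36 of the 54354 genes in the deposited table, taken by name: 4 regulators of the hypoxia response, 12 targets of the hypoxia-inducible factors (HIF), 3 transporters of glucose and lactate, 2 bifunctional enzymes that set the activator of phosphofructokinase, and 15 glycolytic enzymes. They were followed by sequencing of polyadenylated RNA in 34 libraries of mouse colon tumour organoids, which are epithelial cells grown in 3 dimensions. All libraries carry the genotype AKP, which the labels do not spell out, and strain and age were not given in the sources used here. The groups were Degs1 knockout clone1 (9 libraries), Degs1 knockout clone2 (9 libraries) and their Scrambled CRISPR control (3 libraries), and organoids with a hairpin labelled shYAP (3 libraries) and with a control hairpin, shControl (10 libraries). Degs1 encodes the desaturase that completes ceramide in de novo synthesis, and the CRISPR edit was made with a ribonucleoprotein. The series set out to follow expression after loss of Degs1 or lowering of Yap1. Each clone is 1 line, so a difference between clone and control belongs to that line. Nothing in the labels says that replicates were separate cultures, so p-values here set a difference against library spread that could be technical alone.

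HIF is a transcription factor of an oxygen-labile alpha subunit and a stable partner. In the presence of oxygen, prolyl hydroxylases of the Egln family mark the alpha subunit for destruction by the von Hippel-Lindau ubiquitin ligase, and when oxygen falls the alpha subunit persists and binds DNA at sites with the core ACGTG or GCGTG. Its targets feed vessel growth, mitophagy and glucose uptake, and raise glycolytic enzymes, while pyruvate is kept out of mitochondria and lactate is exported. The Egln genes are themselves targets, which makes a feedback loop, and glycolytic genes are also driven by other factors such as MYC. In gut epithelium the surface cells live at low oxygen, and colon tumour cells are known for high glycolysis.

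Promoters of 5 members are shown because these members have a single RefSeq start window and the largest changes, Egln1 and Ankrd37 in the libraries labelled shYAP, and Bnip3, Pfkfb4 and Hif1a in clone2. Each window runs from 250 bases before to 50 bases after the RefSeq start on build GRCm38.p6, 5′ to 3′ on the gene's strand, and capitals mark ACGTG or GCGTG on either strand, so that CACGT and CACGC are the same words read from the other strand. Egln1 (chr8:124949205-124949504, minus strand) holds 2 such words, Ankrd37 (chr8:45999801-46000100, minus strand) holds 4, Bnip3 (chr7:138909457-138909756, minus strand) holds 5, Pfkfb4 (chr9:108991652-108991951, plus strand) holds 1 and Hif1a (chr12:73907617-73907916, plus strand) holds 3.
Egln1: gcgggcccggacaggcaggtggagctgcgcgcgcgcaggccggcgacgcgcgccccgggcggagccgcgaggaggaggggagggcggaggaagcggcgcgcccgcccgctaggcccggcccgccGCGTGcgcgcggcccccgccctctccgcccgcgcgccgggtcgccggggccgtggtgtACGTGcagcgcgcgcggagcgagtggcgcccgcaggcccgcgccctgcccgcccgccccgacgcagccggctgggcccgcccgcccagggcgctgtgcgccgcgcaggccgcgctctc
Ankrd37: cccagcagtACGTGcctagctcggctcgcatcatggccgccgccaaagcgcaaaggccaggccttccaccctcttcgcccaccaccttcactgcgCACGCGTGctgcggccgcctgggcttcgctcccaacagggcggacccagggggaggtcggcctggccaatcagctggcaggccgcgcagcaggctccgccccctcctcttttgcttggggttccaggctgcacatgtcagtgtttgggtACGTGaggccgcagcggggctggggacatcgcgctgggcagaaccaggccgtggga
Bnip3: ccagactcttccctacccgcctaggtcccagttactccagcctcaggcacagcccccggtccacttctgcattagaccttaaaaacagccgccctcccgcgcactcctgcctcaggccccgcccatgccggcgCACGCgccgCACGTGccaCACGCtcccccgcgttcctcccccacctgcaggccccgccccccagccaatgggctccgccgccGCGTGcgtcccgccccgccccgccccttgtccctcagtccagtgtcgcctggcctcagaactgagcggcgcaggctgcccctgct
Pfkfb4: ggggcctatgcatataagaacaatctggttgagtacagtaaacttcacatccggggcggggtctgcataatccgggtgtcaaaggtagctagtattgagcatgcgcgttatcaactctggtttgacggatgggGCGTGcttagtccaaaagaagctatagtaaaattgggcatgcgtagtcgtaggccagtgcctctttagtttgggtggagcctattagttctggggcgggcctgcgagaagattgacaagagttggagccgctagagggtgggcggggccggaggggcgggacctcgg
Hif1a: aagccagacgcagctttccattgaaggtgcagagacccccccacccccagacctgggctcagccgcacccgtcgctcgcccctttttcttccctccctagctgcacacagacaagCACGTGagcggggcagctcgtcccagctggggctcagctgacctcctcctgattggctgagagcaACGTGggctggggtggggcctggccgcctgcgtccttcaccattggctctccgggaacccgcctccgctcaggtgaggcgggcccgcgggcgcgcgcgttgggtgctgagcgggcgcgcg
In Bnip3 the first bases of the words lie 117, 108, 107, 99 and 35 bases before the start, and in Hif1a 135, 134 and 70 bases before it. Where CACGT and ACGTG overlap, as in Bnip3 and Hif1a, they form CACGTG, which is also the E-box word read by MYC and other factors. RefSeq gave 47 windows for 32 members, and none was matched for Slc2a3, Bnip3l, Ndrg1 and Epas1. Of those 47 windows 36 hold the 5-base word (76.6%), in 29 members, against 43.8% of all 32851 windows, and 4 hold CACGTG, against 7.2% of all windows. A match is a description of these letters, not a binding site.

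Library totals ran from 883253 counts in clone1 replicate 2 to 6597099 in a clone2 library, and the 36 genes together took 3.13% to 4.83% of each total. The 8 epithelial markers had counts in every group and summed to 1753 to 3522 CPM (counts relative to the library total), while the markers of fibroblasts, endothelium, immune cells and erythroid cells each summed to at most 3.12 CPM in any library, with Col3a1, Cdh5, Kdr, Cd3e and Hbb-bs among the genes at or near 0. Degs1 had 0.815 to 4.59 (median 3.04) CPM in clone1 and 0.219 to 2.87 (median 1.89) CPM in clone2, against 8.1, 4.95 and 10.2 CPM in Scrambled, and was lower in both (-1.57 ± 0.43 (edgeR adjusted p = 0.0117) and -2.15 ± 0.43 (edgeR adjusted p = 0.000156)). Yap1 had 20.1, 19.2 and 17.9 CPM in the libraries labelled shYAP, against 9.51 to 22.1 (median 16.3) CPM in shControl (0.20 ± 0.23 (edgeR adjusted p = 0.619)), so Yap1 mRNA goes against that label and every direction below refers to the libraries labelled shYAP. In bulk RNA, fewer cells that express a gene and less RNA per cell cannot be told apart. Libraries with neighbouring replicate numbers resembled one another, and the runs shControl 8 to 10 and clone1 7 to 9 stood apart in the genes described here, as given below.

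Fold changes below are log2 values with their standard error from edgeR, fitted on all genes. A gene is said to rise or fall where its adjusted p over all genes is under 0.05. Where a call is said to be lost, only left-out libraries, other controls and subsets of replicates are named for that gene. Changes of test, scaling, filter, threshold or block ended further calls, and the calls that held under every alternative are listed at the end. Levels are CPM scaled by TMM, which corrects for differences in composition between libraries. Of the 36 members 35 were tested in every fit. The neuronal enolase Eno2 was not, with 1 count in each of 2 clone2 libraries and 0 elsewhere, which allows up to 3 counts in a library. Per kilobase of exon, the highest mean level was that of Ldha, lactate dehydrogenase A, in each of the 5 groups, with 3618 ± 323 CPM per kilobase in clone1, 3777 ± 478 in clone2, 3527 ± 43.7 in Scrambled, 3421 ± 104 in the libraries labelled shYAP and 2846 ± 366 in shControl (mean ± SD over libraries). Gapdh, Pgk1 and Aldoa held the next 3 places in every group, in an order that differed between groups and with levels that overlapped within their SD in shControl. In Scrambled their levels per kilobase were 1880.2 ± 411 CPM for Gapdh, 1667 ± 36.3 CPM for Pgk1 and 1448 ± 32.1 CPM for Aldoa. Bnip3 was the first HIF target outside glycolysis to enter the first 6 places, in clone2 alone, at 1104 ± 82.3 CPM per kilobase, against 355 ± 6.14 in Scrambled. At the low end stood Pfkfb4, at 0.989 ± 0.177 CPM per kilobase in clone2 and 0.319 ± 0.117 in Scrambled, and Epas1, at 1.12 ± 0.471 in clone2 and 1.63 ± 0.204 in Scrambled.

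The mean log2 CPM over the 12 HIF targets was lowest in the libraries labelled shYAP, at 5.63 to 5.70, against 6.01 to 6.84 in shControl. It was highest in clone2, at 6.64 to 6.98, against 6.53 to 6.58 in Scrambled. Clone1 lay at 6.34 to 6.74, on both sides of Scrambled. The 14 enzymes that were tested behaved otherwise at the hairpin, with a mean of 9.25 to 9.31 in the libraries labelled shYAP, inside the shControl range of 9.24 to 9.80. In clone2 the enzyme mean lay at 9.82 to 10.03, above the 9.71 to 9.80 of Scrambled, and in clone1 it lay at 9.52 to 9.82. Eno1 is among the 14, and its rise in clone2 was not present once it was summed with its copy, as given below. A mean without Eno1 was not computed, so how far Eno1 sets the narrow gap between clone2 and Scrambled was not tested. Within groups the runs differed. In shControl the target mean was 6.61 to 6.84 in replicates 1 to 7 and 6.01 to 6.17 in replicates 8 to 10, and the enzyme mean was 9.47 to 9.80 and 9.24 to 9.35 in the same libraries. In clone1 the target mean was 6.59 to 6.74 in replicates 1 to 6 and 6.34 to 6.37 in replicates 7 to 9. These means are descriptions and carry no test, since the members were chosen with earlier results known.

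**Figure D1:**
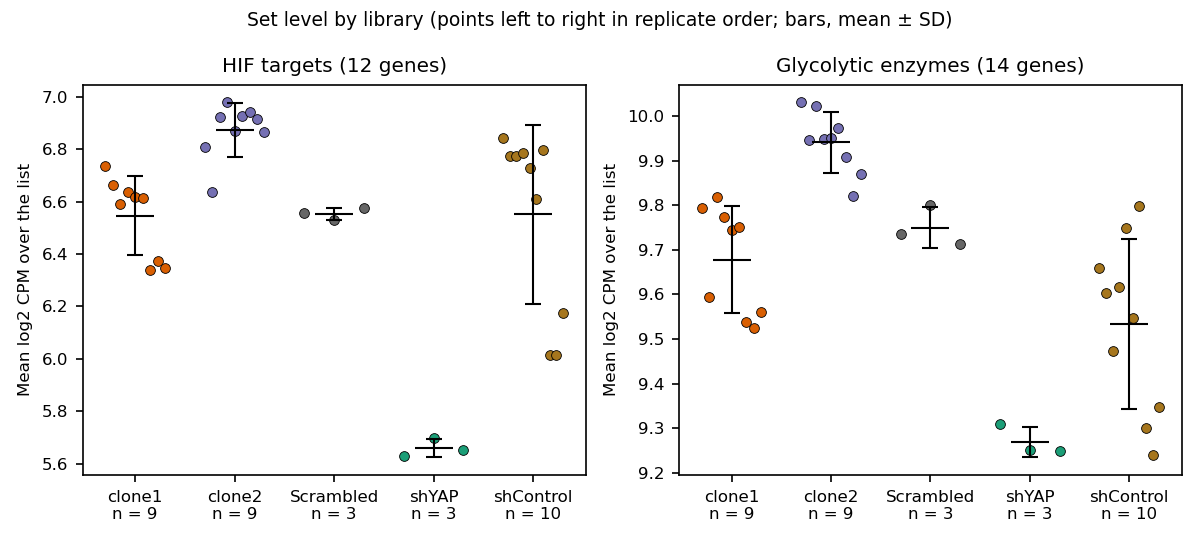
Mean log2 CPM over the 12 HIF targets and over the 14 tested enzymes, 1 point per library. Groups are clone1, clone2, Scrambled, the libraries labelled shYAP and shControl, from left to right. HIF targets lie at 5.63 to 5.70 in the 3 libraries labelled shYAP and at 6.01 to 6.84 in shControl. The enzymes lie at 9.25 to 9.31 in the libraries labelled shYAP. In shControl they lie at 9.47 to 9.80 in replicates 1 to 7 and at 9.24 to 9.35 in replicates 8 to 10.

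In clone1 the hypoxia regulators Hif1a and Egln3 rose while the lactate exporter Slc16a3, the mitochondrial protein Higd1a and 4 glycolytic enzymes fell. Of 35 members 3 were higher and 7 lower, beside 12.7% of all 11514 genes past the threshold (5.96% higher and 6.71% lower). The library ranges of the groups did not overlap for 9 members, 3 higher and 6 lower, beside 10.8% of all genes. By role, 2 of 4 regulators were higher, 2 of 12 HIF targets lower, 1 of 3 transporters lower, 0 of 2 bifunctional enzymes past the threshold, and 1 of 14 enzymes higher and 4 lower. The median log2 fold change was 0.01 over the targets and -0.12 over the enzymes, against 0.03 over all genes tested. With clone replicates 1 to 6 alone, 3 of 12 targets were higher and 2 lower, beside 9.7% and 8.72% of all genes. With replicates 7 to 9 alone, 0 targets were higher and 1 lower, beside 6.54% and 9.66%. Without Scrambled replicate 1, 2 or 3, the number of members higher was 1, 2 or 2, beside 2.89%, 2.93% or 3.5% of all genes. The number lower was 4 each time, beside 3.87%, 3.66% or 5.14%.

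In clone2 the mitophagy receptors Bnip3 and Bnip3l, Higd1a, Hif1a, both bifunctional enzymes and the aldolases rose, while Ndrg1, Slc16a3, Hk2 and Pfkp fell. Of 35 members 14 were higher and 4 lower, beside 33.1% of all 11514 genes (16.5% higher and 16.6% lower). Ranges did not overlap for 16 members, 12 higher and 4 lower, beside 24.7% of all genes. By role, 2 of 4 regulators were higher, 6 of 12 targets higher and 1 lower, 1 of 3 transporters lower, 2 of 2 bifunctional enzymes higher, and 4 of 14 enzymes higher and 2 lower. The 4 include Eno1, whose rise was not present once it was summed with its copy, as given below. With shControl in place of Scrambled, 12 enzymes were higher and 1 lower in clone2, beside 18.7% and 19.8% of all genes. Of the 12 targets, 4 were higher and 1 lower there. In clone1 5 enzymes were higher and 1 lower with that control, beside 9.51% and 11.4%, and 2 targets were higher and 1 lower. The clone2 medians with shControl were 0.19 over the targets and 0.42 over the enzymes, against -0.06 over all genes. Against Scrambled, the medians in clone2 were 0.43 over the targets and 0.20 over the enzymes, against -0.03 over all genes. Without Scrambled replicate 1, 9 members were higher, beside 12.2% of all genes.

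Set against each other, clone2 had more Hif1a, Bnip3, Higd1a, Slc16a3 and most glycolytic enzymes than clone1, and less Hk2, Egln3 and Slc2a3. Of 35 members 18 were higher in clone2 and 6 lower, beside 49.1% of all genes (23.6% higher and 25.5% lower), and ranges did not overlap for 11, 10 higher and 1 lower, beside 11.7% of all genes. The median was 0.40 over the targets and 0.29 over the enzymes, against -0.05 over all genes. Both clones share the same 3 Scrambled libraries, so their values against Scrambled are given side by side and not as 2 independent results. Of 35 members, those past the threshold in both were Hif1a and Aldoc, higher, and Ndrg1, Pfkp and Slc16a3, lower. Eno1 and Higd1a passed with opposite signs and 14 members passed in neither. Of all 11514 genes, 334 were higher in both, 344 lower in both, 139 opposite and 7062 past the threshold in neither.

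**Figure D2:**
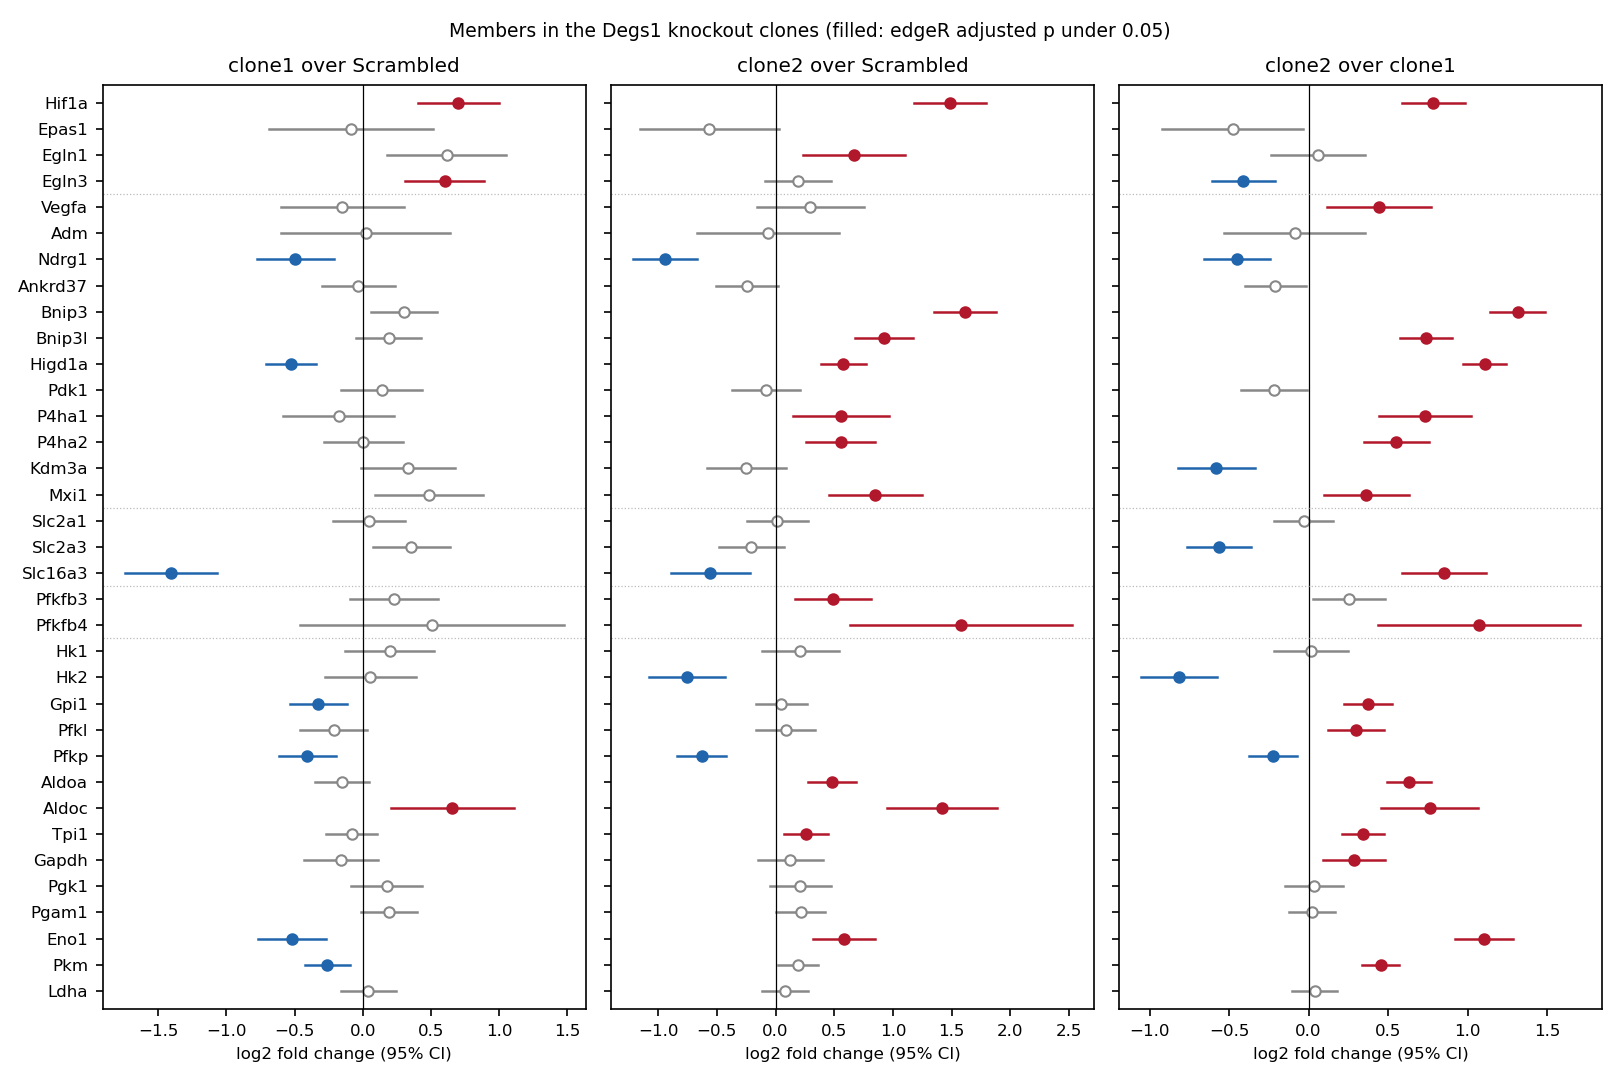
Log2 fold change of each tested member in clone1 and clone2 against Scrambled and in clone2 against clone1, with 95% intervals from edgeR, grouped by role. Bnip3 reaches 1.62 in clone2 and 0.30 in clone1, and Slc16a3 stands at -1.41 in clone1 and -0.56 in clone2.

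In the libraries labelled shYAP, 8 of 12 HIF targets fell, Vegfa, Ndrg1, Ankrd37, Bnip3, Bnip3l, Pdk1, Kdm3a and Mxi1, with the hydroxylase Egln1, the glucose transporter Slc2a1 and Pfkfb3. No member rose and 0 of 14 enzymes passed. The DESeq2 test called 4 of the 14 enzymes lower, beside 8.04% of all genes, and 1 fit of all libraries called 6, beside 8.87%. Of 35 members 11 were lower, beside 11.4% of all 11094 genes past the threshold (5.47% higher and 5.9% lower), and ranges did not overlap for 11, all lower, beside 11.3% of all genes. The median was -0.95 over the targets and -0.32 over the enzymes, against -0.05 over all genes. Against shControl replicates 8 to 10 alone, 6 targets were lower and 0 higher, beside 10.1% and 11.9% of all genes. Of the enzymes, 1 was higher and 2 lower there. The median was -0.32 over the targets and -0.02 over the enzymes, against -0.009 over all genes. Ndrg1, Ankrd37, Pdk1, Egln1 and Vegfa stood at -1.47, -0.99, -0.96, -0.95 and -0.75 against these libraries. Without shYAP replicate 1, 2 or 3, the number of members lower was 5, 6 or 7, beside 2.26%, 1.9% or 2.37% of all genes.

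**Figure D3:**
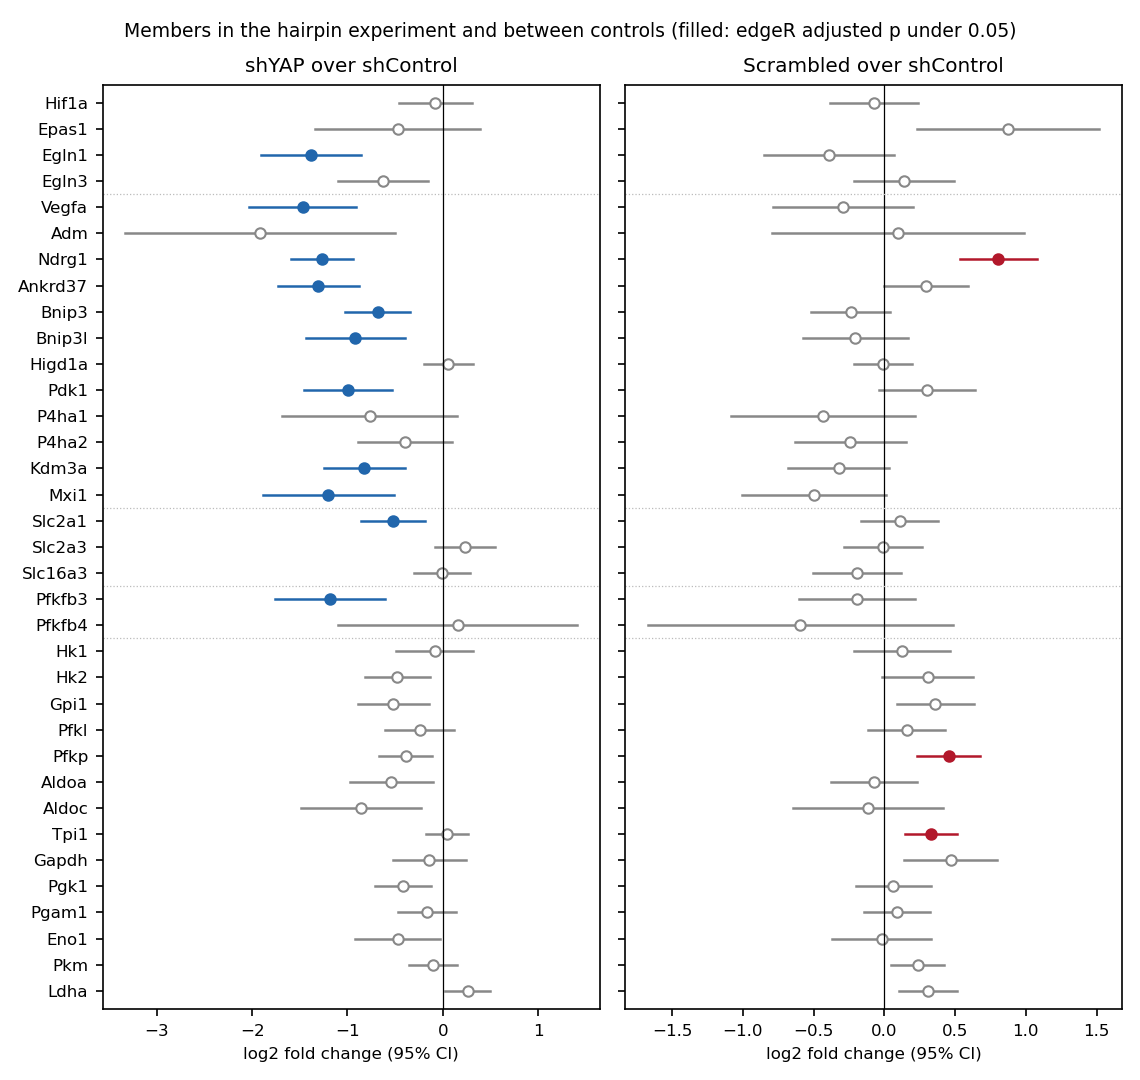
Log2 fold change of each member in the libraries labelled shYAP against shControl and in Scrambled against shControl, with 95% intervals from edgeR, grouped by role. Vegfa, Egln1, Ankrd37 and Ndrg1 stand between -1.47 and -1.27 in the libraries labelled shYAP, while the enzymes lie between -0.86 and 0.26.

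Between both kinds of control, Ndrg1, Pfkp and Tpi1 were higher in Scrambled and 0 members lower, beside 2.95% of all 11960 genes past the threshold (1.76% higher and 1.19% lower). Ranges did not overlap for 3 members, beside 4.29% of all genes. Ndrg1 had 209.9, 211 and 217 CPM in Scrambled, against 103 to 143 (median 117) CPM in shControl (0.80 ± 0.13 (edgeR adjusted p = 0.000188)). Pfkp stood at 0.45 ± 0.11 (edgeR adjusted p = 0.0121) and Tpi1 at 0.33 ± 0.09 (edgeR adjusted p = 0.0292). The Pfkp call was lost without Scrambled replicate 2 (0.47) or 3 (0.40), and the Tpi1 call without Scrambled replicate 1 (0.34) or 2 (0.26). With Scrambled replicate 1, 2 or 3 left out, 2, 1 or 2 members were higher in Scrambled, beside 0.669%, 0.51% or 1.11% of all genes. Against shControl replicates 8 to 10 alone 12 were, beside 2.74%.

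Among the regulators, Hif1a (ENSMUSG00000021109, chromosome 12, 73901375 to 73947530, plus strand, mm10), the alpha subunit of HIF-1, had 35.6 to 60.4 (median 45.8) CPM in clone1 and 72.8 to 91.8 (median 79.5) CPM in clone2, against 32.4, 29.1 and 25.4 CPM in Scrambled. Every library of either clone lay above the highest Scrambled library, and every clone2 library above the highest clone1 library. Hif1a rose by 0.70 ± 0.15 (edgeR adjusted p = 0.000934) in clone1 and by 1.49 ± 0.15 (edgeR adjusted p = 6.08e-10) in clone2, and was 0.78 higher in clone2 than in clone1 on the same log2 scale (0.78 ± 0.10 (edgeR adjusted p = 2.37e-08)). At the hairpin, the libraries labelled shYAP had 24.2, 29.9 and 32.7 CPM, within the shControl range of 21.23 to 35.1 (median 32.6) CPM (-0.08 ± 0.18 (edgeR adjusted p = 0.823)). This mRNA does not measure the protein, whose amount is set mostly by its stability. Epas1, the alpha subunit of HIF-2, had 5.9 to 12.2 (median 8.66) CPM in clone1 and 2.63 to 10.8 (median 6.49) CPM in clone2, against 10.4, 8.35 and 8.53 CPM in Scrambled. Its ranges overlapped in each of these comparisons and it did not pass, with -0.09 ± 0.30 (edgeR adjusted p = 0.896) in clone1, -0.56 ± 0.29 (edgeR adjusted p = 0.14) in clone2 and -0.47 ± 0.42 (edgeR adjusted p = 0.505) in the libraries labelled shYAP. Within clone2 it had 6.25 to 10.8 CPM in replicates 1 to 6 and 2.63 to 3.97 CPM in replicates 7 to 9, and with replicates 7 to 9 alone it passed at -1.46 (edgeR adjusted p = 0.000379). In clone1 it passed in the other direction with shControl in place of Scrambled (0.79).

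Egln1 (ENSMUSG00000031987, chromosome 8, 124908587 to 124949324, minus strand, mm10), the main oxygen-sensing prolyl hydroxylase, had 13.9, 9.48 and 13.9 CPM in the libraries labelled shYAP, against 18.7 to 50.2 (median 30.1) CPM in shControl. All 3 lay below the lowest shControl library, and Egln1 fell by 1.38 ± 0.25 (edgeR adjusted p = 0.00125). In shControl it had 29.6 to 50.2 CPM in replicates 1 to 7 and 18.7 to 29.1 CPM in replicates 8 to 10, so the late libraries were the lower ones. In clone1 it had 13.3 to 55.9 (median 36.5) CPM and in clone2 31.3 to 48 (median 39.1) CPM, against 18.3, 26.1 and 29.3 CPM in Scrambled. Clone2 lay above all Scrambled libraries and clone1 overlapped them. Egln1 rose by 0.67 ± 0.21 (edgeR adjusted p = 0.0144) in clone2, a call lost without Scrambled replicate 1 (0.50) or with shControl in place of Scrambled (0.30), and its value in clone1 was 0.62 ± 0.21 (edgeR adjusted p = 0.0538). With clone replicates 1 to 6 alone Egln1 passed as higher in clone1 (0.75, edgeR adjusted p = 0.019). Egln3, a hydroxylase that HIF induces, had 76.4 to 148 (median 110.0) CPM in clone1 and 68 to 91.6 (median 83.9) CPM in clone2, against 62.9, 76.3 and 73.6 CPM in Scrambled. It rose by 0.60 ± 0.14 (edgeR adjusted p = 0.00362) in clone1, where the lowest library lay just above the highest Scrambled library, and the call was lost without Scrambled replicate 1 (0.52) or with clone replicates 7 to 9 alone (0.25). In clone2 the value was 0.19 ± 0.14 (edgeR adjusted p = 0.314). It had 51.3, 40.3 and 34.5 CPM in the libraries labelled shYAP, against 42.2 to 87.6 (median 67.1) CPM in shControl, which overlapped (-0.62 ± 0.23 (edgeR adjusted p = 0.0774)).

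Among the HIF targets, Vegfa (ENSMUSG00000023951, chromosome 17, 46016993 to 46032369, minus strand, mm10), the angiogenic growth factor, had 25.6, 27.7 and 20.5 CPM in the libraries labelled shYAP, against 35.5 to 97.2 (median 74) CPM in shControl. All 3 lay below every shControl library, and Vegfa fell by 1.47 ± 0.27 (edgeR adjusted p = 0.00136). Within shControl it had 71.2 to 97.2 CPM in replicates 1 to 7 and 35.5 to 44.8 CPM in replicates 8 to 10, and against the late libraries alone the value was -0.75 (edgeR adjusted p = 0.000889). Vegfa had 38.1 to 105 (median 43.3) CPM in clone1 and 54.1 to 84 (median 73) CPM in clone2, against 43.7, 79.2 and 42.7 CPM in Scrambled. One Scrambled library reached into the clone2 range and all 3 groups overlapped, with -0.15 ± 0.22 (edgeR adjusted p = 0.738) in clone1 and 0.30 ± 0.22 (edgeR adjusted p = 0.329) in clone2. The highest clone1 value came from replicate 2, the shallowest library.

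Ndrg1 (ENSMUSG00000005125, chromosome 15, 66929318 to 66969640, minus strand, mm10), a stress protein strongly induced by hypoxia, had 97 to 199 (median 164) CPM in clone1 and 105 to 125 (median 109) CPM in clone2, against 209.9, 211 and 217 CPM in Scrambled. Both clones lay wholly below Scrambled. Ndrg1 fell by 0.49 ± 0.14 (edgeR adjusted p = 0.0137) in clone1 and by 0.94 ± 0.14 (edgeR adjusted p = 1.01e-06) in clone2. Scrambled was itself the highest of all groups for this gene, and with shControl in place of Scrambled the values were 0.30 in clone1, now past the threshold in the opposite direction, and -0.12 in clone2. The clone1 call was also lost without Scrambled replicate 1 (-0.51), 2 (-0.49) or 3 (-0.48), and with clone replicates 7 to 9 alone (-0.21). In the libraries labelled shYAP Ndrg1 had 51.8, 53.3 and 47.1 CPM, against 103 to 143 (median 117) CPM in shControl. These ranges lay far apart, and Ndrg1 fell by 1.27 ± 0.16 (edgeR adjusted p = 2.12e-05). Within shControl it had 103 to 134 CPM in replicates 1 to 7 and 137 to 143 CPM in replicates 8 to 10, and the value against the late libraries alone was -1.47 (edgeR adjusted p = 2.34e-13).

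Ankrd37 (ENSMUSG00000050914, chromosome 8, 45996902 to 46005707, minus strand, mm10), a small ankyrin repeat protein and HIF-1 target, had 18, 22.5 and 14.4 CPM in the libraries labelled shYAP, against 33.4 to 58.9 (median 44.4) CPM in shControl. The groups did not overlap and Ankrd37 fell by 1.3049 ± 0.21 (edgeR adjusted p = 0.000271). It had 46.7 to 64.2 (median 54.2) CPM in clone1 and 33.9 to 54.1 (median 48.4) CPM in clone2, against 56, 50.9 and 58.5 CPM in Scrambled, with overlap between groups and values of -0.03 ± 0.13 (edgeR adjusted p = 0.918) and -0.24 ± 0.13 (edgeR adjusted p = 0.159). Pdk1, the kinase that shuts pyruvate dehydrogenase, had 20.9, 26.5 and 24.3 CPM in the libraries labelled shYAP, against 31.6 to 74.8 (median 49) CPM in shControl. It lay below every shControl library and fell by 0.99 ± 0.22 (edgeR adjusted p = 0.00655), a call lost without shYAP replicate 1 (-0.90). In clone1 Pdk1 had 50.9 to 83.5 (median 63.1) CPM and in clone2 43.6 to 67.6 (median 57.6) CPM, against 66.6, 52.8 and 56.1 CPM in Scrambled. These ranges overlapped, with 0.14 ± 0.15 (edgeR adjusted p = 0.61) in clone1 and -0.08 ± 0.14 (edgeR adjusted p = 0.718) in clone2.

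Bnip3 (ENSMUSG00000078566, chromosome 7, 138890836 to 138909519, minus strand, mm10), a receptor on the outer mitochondrial membrane that recruits the autophagy machinery, had 2168 to 2849.6 (median 2513) CPM in clone2 and 737 to 1165 (median 1083) CPM in clone1, against 804, 789.9 and 818 CPM in Scrambled. Clone2 lay far above both other groups, and clone1 overlapped Scrambled. Bnip3 rose by 1.62 ± 0.13 (edgeR adjusted p = 2.1e-12) in clone2, and its value in clone1 was 0.30 ± 0.12 (edgeR adjusted p = 0.0944), which passed with replicates 1 to 6 alone (0.48). It was higher in clone2 than in clone1 by 1.31 ± 0.08 (edgeR adjusted p = 1.61e-15). Bnip3 had 603, 572 and 606 CPM in the libraries labelled shYAP, against 678 to 1222 (median 1031) CPM in shControl. The groups did not overlap, and Bnip3 fell by 0.68 ± 0.16 (edgeR adjusted p = 0.00985), a call lost without shYAP replicate 1 (-0.69) or 2 (-0.65). Replicates 1 to 7 of shControl had 840.0 to 1222 CPM and replicates 8 to 10 had 678 to 745 CPM, against which alone the value was -0.29 (edgeR adjusted p = 0.00376).

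Bnip3l, the related mitophagy receptor also called Nix, had 806 to 1167 (median 951) CPM in clone2 and 474 to 681 (median 612) CPM in clone1, against 511, 512 and 518 CPM in Scrambled. Clone2 again lay above every library of the other groups of that experiment, and Bnip3l rose by 0.93 ± 0.12 (edgeR adjusted p = 1.79e-07), against 0.19 ± 0.12 (edgeR adjusted p = 0.323) in clone1. With clone replicates 1 to 6 alone Bnip3l passed as higher in clone1 (0.32, edgeR adjusted p = 0.0359). It had 297, 327 and 323 CPM in the libraries labelled shYAP, against 367 to 863 (median 634) CPM in shControl. Bnip3l fell by 0.92 ± 0.25 (edgeR adjusted p = 0.0235) there without overlap, a call lost without shYAP replicate 1 (-0.87), 2 (-0.94) or 3 (-0.95), and against shControl replicates 8 to 10 alone it stood at -0.27 (edgeR adjusted p = 0.0111). Of the 31-base words in the transcripts of Bnip3 and Bnip3l, 20.3% and 23.7% also occur in another gene, mostly a processed copy, so some of their reads could be assigned elsewhere.

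Higd1a (ENSMUSG00000038412, chromosome 9, 121848563 to 121858362, minus strand, mm10), a small protein of the inner mitochondrial membrane, moved in opposite directions in the clones, with 900.0 to 1124 (median 1048) CPM in clone1 and 2023 to 2749 (median 2202) CPM in clone2, against 1465, 1458 and 1549.8 CPM in Scrambled. All clone1 libraries lay below Scrambled and all clone2 libraries above it. Higd1a fell by 0.53 ± 0.09 (edgeR adjusted p = 6.84e-05) in clone1 and rose by 0.58 ± 0.10 (edgeR adjusted p = 1.09e-05) in clone2, and both calls held under every alternative. The direct difference of clone2 from clone1 was 1.11 ± 0.07 (edgeR adjusted p = 2.04e-16). Libraries labelled shYAP had 1619, 1522 and 1568 CPM of Higd1a, within the shControl range of 1239 to 1844 (median 1450.0) CPM (0.06 ± 0.12 (edgeR adjusted p = 0.807)). Mxi1, an antagonist of MYC, had 20.37 to 38.9 (median 35.7) CPM in clone2 and 19.5 to 39.9 (median 23.6) CPM in clone1, against 20.36, 15.2 and 19.7 CPM in Scrambled. The lowest clone2 library lay level with the highest Scrambled library, and clone1 overlapped. Mxi1 rose by 0.85 ± 0.20 (edgeR adjusted p = 0.000794) in clone2, a call lost with shControl in place of Scrambled (0.37), and stood at 0.49 ± 0.20 (edgeR adjusted p = 0.0987) in clone1. With clone replicates 1 to 6 alone Mxi1 passed as higher in clone1 (0.62, edgeR adjusted p = 0.0304). It had 10.1, 12.8 and 11 CPM in the libraries labelled shYAP, against 12.4 to 39.3 (median 24.7) CPM in shControl, with 1 overlapping edge. It fell by 1.1998 ± 0.33 (edgeR adjusted p = 0.0228), a call lost without shYAP replicate 1 (-1.12), 2 (-1.2959) or 3 (-1.2037), with shControl replicates 5 to 10 alone (-0.74) or with shControl replicates 8 to 10 alone (-0.36).

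The remaining targets were the collagen prolyl hydroxylases P4ha1 and P4ha2, the histone demethylase Kdm3a and the vasodilator peptide Adm. P4ha2 rose by 0.56 ± 0.15 (edgeR adjusted p = 0.00289) in clone2, with all 9 libraries above Scrambled. P4ha1 rose by 0.56 ± 0.20 (edgeR adjusted p = 0.0313) in clone2 with overlap, a call lost without Scrambled replicate 1 (0.59), 2 (0.48) or 3 (0.59), with shControl in place of Scrambled (0.14) or with clone replicates 1 to 6 alone (0.49). Kdm3a fell by 0.82 ± 0.20 (edgeR adjusted p = 0.0116) in the libraries labelled shYAP with overlap, a call lost without shYAP replicate 2 (-0.75) or 3 (-0.84) or with shControl replicates 8 to 10 alone (-0.46). Adm ranged from 7.67 to 27.7 CPM in the 21 libraries of the knockout experiment and did not pass in either clone. For clone2 against clone1, Adm stood at -0.09 ± 0.22 (edgeR adjusted p = 0.766). It passed in opposite directions by run, at -0.62 (edgeR adjusted p = 0.0193) with replicates 1 to 6 alone and 0.95 (edgeR adjusted p = 0.000767) with replicates 7 to 9 alone. Its value in the libraries labelled shYAP was -1.91 ± 0.66 (edgeR adjusted p = 0.0768), the most negative of the 12 targets there, with 2.16, 3.55 and 5.74 CPM, against 3.35 to 26.7 (median 16.7) CPM in shControl. Within shControl Adm had 8.51 to 26.7 CPM in replicates 1 to 7 and 3.35 to 4.71 CPM in replicates 8 to 10, and the value against the late libraries alone was -0.15 (edgeR adjusted p = 0.86).

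**Figure D4:**
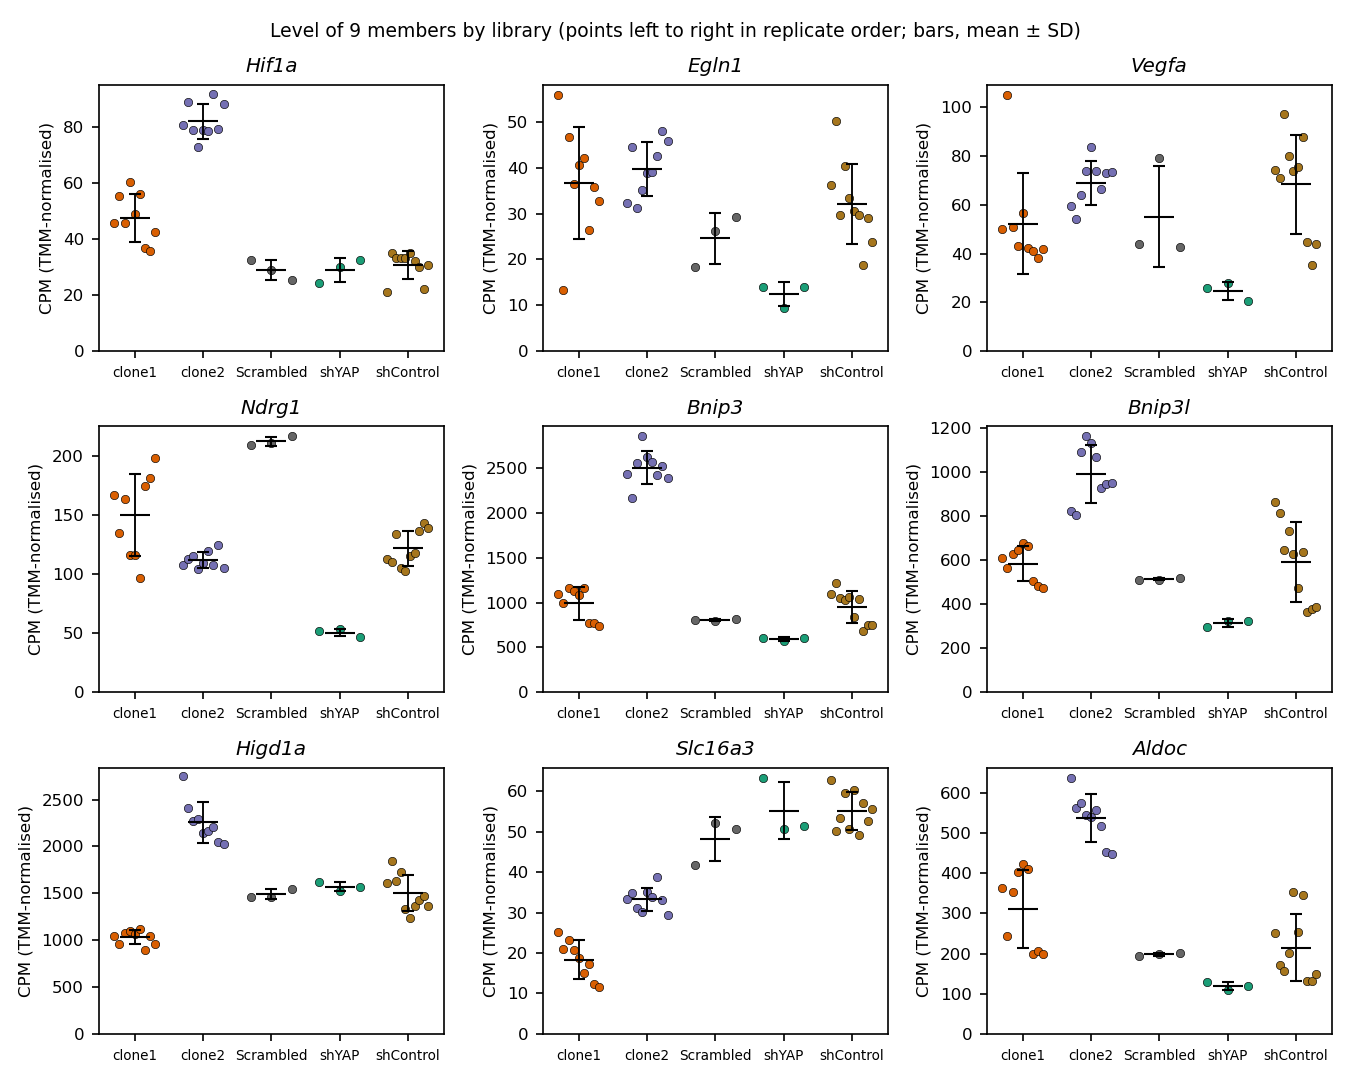
CPM of Hif1a, Egln1, Vegfa, Ndrg1, Bnip3, Bnip3l, Higd1a, Slc16a3 and Aldoc, 1 point per library, for clone1, clone2, Scrambled, the libraries labelled shYAP and shControl, from left to right. Higd1a lies at 2023 to 2749 CPM in clone2 and 900.0 to 1124 CPM in clone1, on either side of Scrambled at 1458 to 1550 CPM.

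Of the transporters, Slc16a3 (ENSMUSG00000025161, chromosome 11, 120948480 to 120960868, plus strand, mm10), the exporter of lactate, had 11.6 to 25.2 (median 18.8) CPM in clone1 and 29.5 to 38.8 (median 33.4) CPM in clone2, against 41.9, 52.1 and 50.6 CPM in Scrambled. The 3 groups did not overlap, with clone1 lowest and clone2 between. Slc16a3 fell by 1.41 ± 0.17 (edgeR adjusted p = 1.17e-07) in clone1, a call that held under every alternative, and by 0.56 ± 0.17 (edgeR adjusted p = 0.00835) in clone2, a call lost without Scrambled replicate 2 (-0.49). The libraries labelled shYAP had 63.3, 50.7 and 51.5 CPM and shared the shControl range of 49.2 to 62.8 (median 54.5) CPM (-0.01 ± 0.14 (edgeR adjusted p = 0.984)). Slc2a1, the basal glucose transporter, had 52, 51.2 and 45.3 CPM in the libraries labelled shYAP, against 55.9 to 90.1 (median 69.1) CPM in shControl. The groups stood apart by a few CPM and Slc2a1 fell by 0.52 ± 0.16 (edgeR adjusted p = 0.0376), a call lost without shYAP replicate 1 (-0.55), 2 (-0.54) or 3 (-0.48) or with shControl replicates 8 to 10 alone (-0.34). In clone1 it had 63.3 to 95.6 (median 76.7) CPM and in clone2 64.2 to 94.9 (median 77.5) CPM, against 73.8, 81.5 and 73.2 CPM in Scrambled. All 3 ranges overlapped, with 0.05 ± 0.13 (edgeR adjusted p = 0.87) in clone1 and 0.02 ± 0.13 (edgeR adjusted p = 0.941) in clone2. Slc2a3, a glucose transporter of high affinity, did not pass at 0.36 ± 0.14 (edgeR adjusted p = 0.0919) in clone1 (0.34 and past the threshold with shControl in place of Scrambled), -0.21 ± 0.14 (edgeR adjusted p = 0.257) in clone2 and 0.23 ± 0.15 (edgeR adjusted p = 0.343) in the libraries labelled shYAP, and was lower in clone2 than in clone1 by 0.56 ± 0.10 (edgeR adjusted p = 1.09e-05).

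The bifunctional enzymes make or remove the sugar bisphosphate that switches on phosphofructokinase. Pfkfb3, the isoform weighted towards making it, had 16.1, 19.4 and 18.8 CPM in the libraries labelled shYAP, against 20.8 to 58.3 (median 40.9) CPM in shControl. It lay below every shControl library and fell by 1.18 ± 0.28 (edgeR adjusted p = 0.00855), a call lost without shYAP replicate 1 (-1.10) or with shControl replicates 8 to 10 alone (-0.49). Pfkfb3 had 41 to 59.2 (median 49.9) CPM in clone2 and 28.8 to 55.7 (median 40.3) CPM in clone1, against 29.4, 31.6 and 46.3 CPM in Scrambled. The ranges overlapped, and it rose by 0.49 ± 0.16 (edgeR adjusted p = 0.0169) in clone2, a call lost without Scrambled replicate 1 (0.36) or 2 (0.41), with shControl in place of Scrambled (0.31) or with clone replicates 7 to 9 alone (0.36), with 0.23 ± 0.16 (edgeR adjusted p = 0.391) in clone1. Pfkfb4 had 3.02 to 5.9 (median 4.85) CPM in clone2 and 1.05 to 8.86 (median 1.79) CPM in clone1, against 0.925, 1.7 and 2.03 CPM in Scrambled. All clone2 libraries lay above Scrambled, at 16 to 32 counts per library, against 4 to 11 counts in Scrambled. Pfkfb4 rose by 1.58 ± 0.47 (edgeR adjusted p = 0.00787), a call lost without Scrambled replicate 1 (1.34), and clone1 stood at 0.51 ± 0.48 (edgeR adjusted p = 0.557). It had 5.27, 2.13 and 0.663 CPM in the libraries labelled shYAP and 0.607 to 4.84 (median 1.73) CPM in shControl (0.16 ± 0.60 (edgeR adjusted p = 0.897)).

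Of the enzymes that use hexose, hexokinase Hk2 had 68 to 148 (median 87.7) CPM in clone2 and 118 to 192 (median 167) CPM in clone1, against 170.3, 149 and 163 CPM in Scrambled. The highest clone2 library lay just below the lowest Scrambled library, and clone1 overlapped it. Hk2, the inducible first enzyme of the pathway, fell by 0.76 ± 0.16 (edgeR adjusted p = 0.000372) in clone2, held under every alternative, and stood at 0.06 ± 0.16 (edgeR adjusted p = 0.877) in clone1. It had 76.7, 103 and 101 CPM in the libraries labelled shYAP, against 94.2 to 166 (median 128) CPM in shControl (-0.48 ± 0.16 (edgeR adjusted p = 0.0628)), and against shControl replicates 8 to 10 alone it passed at -0.35 (edgeR adjusted p = 0.0192). Pfkp, the platelet-type phosphofructokinase, had 300.1 to 392 (median 353) CPM in clone1 and 265 to 379 (median 303) CPM in clone2, against 444, 452 and 503 CPM in Scrambled. Both clones lay below Scrambled. Pfkp fell by 0.41 ± 0.10 (edgeR adjusted p = 0.00669) in clone1 and by 0.63 ± 0.10 (edgeR adjusted p = 7.47e-06) in clone2. The first call was lost without Scrambled replicate 3 (-0.35) or with shControl in place of Scrambled (0.04), and the second with shControl in place of Scrambled (-0.16). In the libraries labelled shYAP it had 268, 258 and 258 CPM, below the shControl range of 274 to 402 (median 345) CPM, and did not pass (-0.39 ± 0.13 (edgeR adjusted p = 0.0635)).

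Aldoc (ENSMUSG00000017390, chromosome 11, 78322968 to 78327781, plus strand, mm10), the aldolase first described in brain, had 448 to 636 (median 544) CPM in clone2 and 199.8 to 422 (median 354) CPM in clone1, against 193, 199.9 and 201 CPM in Scrambled. Clone2 lay above both other groups, and 2 clone1 libraries lay within the Scrambled range. Aldoc rose by 1.42 ± 0.23 (edgeR adjusted p = 4.99e-05) in clone2, a call that held under every alternative, and by 0.66 ± 0.22 (edgeR adjusted p = 0.0494) in clone1, a call lost without Scrambled replicate 1 (0.64), 2 (0.67) or 3 (0.66) or with clone replicates 7 to 9 alone (0.02). Within clone1 it had 245 to 422 CPM in replicates 1 to 6 and 199.8 to 205 CPM in replicates 7 to 9. The libraries labelled shYAP had 129, 108 and 120.2 CPM, below the shControl range of 131 to 354 (median 186) CPM, and the value did not pass (-0.86 ± 0.30 (edgeR adjusted p = 0.0745)). Aldoa, the aldolase of most tissues, rose by 0.48 ± 0.10 (edgeR adjusted p = 0.000253) in clone2, again under every alternative, and stood at -0.15 ± 0.10 (edgeR adjusted p = 0.34) in clone1. Gpi1, which isomerises glucose phosphate, fell by 0.32 ± 0.10 (edgeR adjusted p = 0.0323) in clone1 with overlap, a call lost without Scrambled replicate 1 (-0.33) or 2 (-0.24), with shControl in place of Scrambled (0.03) or with clone replicates 1 to 6 alone (-0.20).

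Lower in the pathway, Tpi1, triose phosphate isomerase, had 2793 to 3543 (median 3027) CPM in clone2 and 2197 to 2625 (median 2433) CPM in clone1, against 2577, 2786 and 2336 CPM in Scrambled. The lowest clone2 library lay just above the highest Scrambled library, and clone1 overlapped Scrambled. Tpi1 rose by 0.26 ± 0.09 (edgeR adjusted p = 0.0302) in clone2, a call lost without Scrambled replicate 1 (0.25) or 3 (0.19) or with clone replicates 7 to 9 alone (0.16), and stood at -0.08 ± 0.09 (edgeR adjusted p = 0.639) in clone1. Libraries labelled shYAP had 2217, 2072 and 2032 CPM of Tpi1, within the shControl range of 1863 to 2285 (median 2017) CPM (0.04 ± 0.11 (edgeR adjusted p = 0.846)). Pkm, pyruvate kinase, fell by 0.26 ± 0.08 (edgeR adjusted p = 0.0276) in clone1, with all 9 libraries below Scrambled, a call lost without Scrambled replicate 1 (-0.26), 2 (-0.25) or 3 (-0.27), with shControl in place of Scrambled (-0.03) or with clone replicates 1 to 6 alone (-0.19). In clone2 all 9 Pkm libraries lay above Scrambled and the value was 0.19 ± 0.08 (edgeR adjusted p = 0.0746). Pkm passed as higher in clone2 with replicates 1 to 6 alone (0.23, edgeR adjusted p = 0.0264) or 7 to 9 alone (0.18, edgeR adjusted p = 0.0227). It also passed there with shControl in place of Scrambled (0.45, edgeR adjusted p = 4.05e-07). Ldha, which turns pyruvate into lactate, had 10620.2 to 13227 (median 12143) CPM in clone1 and 10974 to 15782 (median 12050.2) CPM in clone2, against 11715, 11794 and 11514 CPM in Scrambled. Its ranges overlapped in every comparison, with 0.04 ± 0.10 (edgeR adjusted p = 0.848) in clone1, 0.08 ± 0.10 (edgeR adjusted p = 0.577) in clone2 and 0.26 ± 0.11 (edgeR adjusted p = 0.142) in the libraries labelled shYAP, where it had 11123, 11127 and 11719 CPM, against 7907 to 11696 (median 9311) CPM in shControl. Ldha passed as higher with shControl in place of Scrambled, at 0.35 in clone1 and 0.41 in clone2, and in the libraries labelled shYAP against shControl replicates 8 to 10 alone, which had 9157 to 9383 CPM (0.28, edgeR adjusted p = 0.00305). The other enzymes, Hk1, Pfkl, Gapdh, Pgk1 and Pgam1, passed neither in a clone against Scrambled nor in the libraries labelled shYAP against all of shControl. In clone2 all 5 passed as higher with shControl in place of Scrambled, at 0.26 to 0.61. Pgk1 also passed with replicates 1 to 6 alone in clone1 (0.32) and clone2 (0.34), and as lower in the libraries labelled shYAP against shControl replicates 5 to 10 (-0.42) or 8 to 10 (-0.24). Pfkl and Gapdh were higher in clone2 than in clone1 by 0.30 and 0.29.

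Eno1 (ENSMUSG00000063524, chromosome 4, 150236721 to 150248879, plus strand, mm10), the enolase of most tissues, shares 27.7% of its 31-base words with Eno1b, a copy on chromosome 18, and its values are uncertain for that reason. Eno1 had 714 to 898 (median 848) CPM in clone1 and 1129 to 2104 (median 1992) CPM in clone2, against 1186, 1196 and 1228 CPM in Scrambled. Clone1 lay below Scrambled and clone2 reached from below it to far above it. Taken alone, Eno1 fell by 0.52 ± 0.12 (edgeR adjusted p = 0.00337) in clone1 and rose by 0.58 ± 0.13 (edgeR adjusted p = 0.000564) in clone2. The share of Eno1 in the sum of Eno1 and Eno1b was 29.7% to 33.0% in clone1 and 29.5% to 31.3% in Scrambled, but in clone2 it was 31.2% to 32.9% in replicates 1 and 2 and 49.1% to 51.8% in replicates 3 to 9. In shControl the share was 45.1% to 48.7% in replicates 1 to 4 and 28.1% to 32.7% in replicates 5 to 10, and in the libraries labelled shYAP it was 28.6% to 30.9%. The share thus took 2 levels that followed replicate numbers inside groups. With both genes summed, the value was -0.56 in clone1 (edgeR adjusted p = 1.5e-06), -0.03 in clone2 (edgeR adjusted p = 0.795) and 0.53 for clone2 against clone1 (edgeR adjusted p = 4.05e-10). The sum had 2409 to 2780 CPM in clone1 and 3618 to 4065 CPM in clone2, against 3921 to 4024 CPM in Scrambled, so the rise in clone2 was not present in the sum and the fall in clone1 was. Of the other enzymes, Pgk1, Pgam1, Pkm, Gapdh, Ldha, Aldoa, Gpi1 and Tpi1 share 10.3% to 54.7% of their words with other genes, mostly processed copies, and their counts carry the same kind of doubt.

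Other genes of these pathways were counted from lists outside the 36. Of 19 further HIF targets tested in the knockout experiment, 1 was higher and 3 lower in clone1, beside 5.96% and 6.71% of all genes, and 6 were higher and 4 lower in clone2, beside 16.5% and 16.6% of all genes. Car9, the carbonic anhydrase that is among the sharpest HIF markers, had 8.24 to 19.6 (median 13.9) CPM in clone1 and 0.441 to 3.15 (median 1.16) CPM in clone2, against 122, 122 and 129 CPM in Scrambled. It fell by 3.18 ± 0.18 (edgeR adjusted p = 5.72e-16) in clone1 and by 6.53 ± 0.22 (edgeR adjusted p = 1.24e-23) in clone2. Bnip3 and Car9, both HIF targets, thus changed in opposite directions in clone2. For Car9 every Scrambled library lay above shControl, at 27 to 97 CPM, so the size of these falls depends on the control. Both clones lay below shControl as well. Between the controls, 4 of 20 further targets were higher in Scrambled and 0 lower, beside 1.76% and 1.19% of all genes. The nuclear receptor Rora rose by 1.96 ± 0.44 (edgeR adjusted p = 0.00059) in clone2. In the libraries labelled shYAP 8 of 20 further targets were lower and 0 higher, beside 5.9% and 5.47% of all genes, with a median of -1.11 over the list, and Car9 fell by 2.25 ± 0.49 (edgeR adjusted p = 0.0105). Within shControl, Car9 had 27 to 97 CPM in replicates 1 to 7 and 28.1 to 30.6 CPM in replicates 8 to 10, and in the libraries labelled shYAP 13.2, 11.1 and 13.5 CPM. Of 6 further genes of the HIF pathway itself, such as its partner subunit and the ubiquitin ligase, 0 passed in either clone. Of all genes 12.7% passed in clone1 and 33.1% in clone2. Between the clones 1 of the 6 was higher in clone2 and 3 lower, beside 23.6% and 25.5% of all genes. In the libraries labelled shYAP 1 was lower, beside 5.9%.

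Of 10 further genes of glycolysis, 2 were higher and 2 lower in clone1 (5.96% and 6.71% of all genes), and 3 were higher and 2 lower in clone2 (16.5% and 16.6% of all genes). Pklr, the liver-type pyruvate kinase, fell by 3.82 ± 0.41 (edgeR adjusted p = 2.27e-09) in clone2, and Eno3, the muscle enolase, rose by 1.89 ± 0.11 (edgeR adjusted p = 3.99e-16) in clone2. Of 8 genes of lactate and pyruvate handling, 1 was higher and 0 lower in clone1, and 5 were higher and 0 lower in clone2, beside those shares. Slc16a1, the transporter that moves lactate either way, rose by 1.04 ± 0.15 (edgeR adjusted p = 3.62e-06) in clone1, the clone with the lowest Slc16a3. Bsg, the chaperone of both lactate transporters, rose by 1.14 ± 0.19 (edgeR adjusted p = 4.34e-05) in clone2, as did Pdk2 (by 1.53 ± 0.30 (edgeR adjusted p = 0.000121)), a kinase of pyruvate dehydrogenase. Of 7 genes of the pentose phosphate pathway, 0 were higher and 1 lower in clone1, and 2 were higher and 1 lower in clone2, beside the same shares. Pgls fell by 0.57 ± 0.15 (edgeR adjusted p = 0.00677) in clone1, and G6pdx, which opens that pathway, rose by 0.41 ± 0.10 (edgeR adjusted p = 0.00208) in clone2 with the epimerase Rpe (0.59 ± 0.17 (edgeR adjusted p = 0.00715)). Of 3 tested genes of gluconeogenesis, the mitochondrial carboxykinase Pck2 fell by 0.76 ± 0.10 (edgeR adjusted p = 1.78e-07) in clone2, and Fbp2, a bisphosphatase best known from muscle, rose by 0.48 ± 0.09 (edgeR adjusted p = 0.000382) in clone1 and fell by 0.28 ± 0.09 (edgeR adjusted p = 0.0125) in clone2.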

How the data were processed

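Libraries were poly(A)-selected and strand-specific, per the labels' protocols. The deposited table held estimated counts for each gene. Salmon 1.3.0 and build mm10 are named in the submitters' processing notes. The deposited counts were whole numbers, unscaled between libraries. How transcripts were summed and which annotation was used are not given in the sources used here. Entries without a gene name held at most 0.0475% of any library's counts and were not set aside before the count filter. Aldoa occurs as 2 entries, and the one with the more counts was used.

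Positions and exon lengths came from GENCODE M21 and promoters from RefSeq. Shared sequence was measured as 31-base words of GENCODE M21 transcripts. Genes passing filterByExpr (minimum count 10, minimum total count 15) were scaled with TMM. Differences were tested two-sided in edgeR 4.0.16 (R 4.3.3) by robust quasi-likelihood, with Benjamini-Hochberg adjustment over all genes tested and a threshold of 0.05. The 21 knockout libraries shared 1 fit, the 13 hairpin libraries another, and Scrambled against shControl came from all 34. Levels are CPM from TMM over all 34 libraries, so a ratio of levels can differ slightly from a fold change. Mean log2 CPM used a prior count of 2. Counting floors cover counting error only.

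The members, lists and rules were chosen with earlier results of these data known. Values by library are given for Hif1a, Epas1, Egln1, Egln3, Vegfa, Slc2a1, Pdk1 and Ldha and for members among the 8 largest changes past the threshold in a comparison, 22 in all. Of other lists, up to 3 genes with the largest changes in either clone are named, and Car9 always, apart from some that are not reported here. Adm and the run values of other members were added after their values were seen. The runs were defined after seeing the data. Libraries that share a replicate number across groups did not deviate together, with correlations of -0.069 to 0.076 after removal of group means, so fits had no block.

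Counts were simulated at the library sizes of each experiment, drawn independently, with 1 spread for all genes, no runs and few changed genes. The shares below describe that setting and do not carry over to these data. For clone2 against Scrambled, with 10961 genes, 97.8% and 100% of genes changed by a log2 fold of -2 and 2 were called. At -1 and 1 these were 55.6% and 63.3%. Unchanged genes made up 4.43% of calls. For the hairpin comparison, with 10765 genes, these shares were 89.8%, 100%, 30.6% and 48%, with 6.99% of calls unchanged. Alternatives were DESeq2 size factors, no filter, a threshold of 0.01, the Wald test of DESeq2 1.42.0, all libraries in 1 fit, the replicate block, leaving out libraries, other controls and subsets of replicates. Limma 3.58.1 on log2 CPM, with or without a random effect of run, and the sum of Eno1 and Eno1b were chosen after seeing the data. They were run for the members, not for the other lists.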

Additional observations from a re-analysis of the deposited data

Results flagged for a closer look

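In groups of 4 to 10 libraries, 105 combinations of gene and group were searched for a library far from the others, and 3 were found, all in clone1 replicate 2, the shallowest library. Chance alone gives about 1 in 20. Vegfa had 105 CPM there and the next library 56.7 CPM, Pfkfb4 had 8.86 CPM and the next 3.32 CPM, and Eno1 had 714 CPM and the next 810 CPM. Without this library Eno1 stayed past the threshold in clone1, and Vegfa and Pfkfb4 did not pass there with or without it.

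Levels differed between the clones, by the direct test of clone2 against clone1, for 24 members. Higher in clone2 were Bnip3 by 1.31, Higd1a by 1.11, Eno1 by 1.10, Pfkfb4 by 1.07, Slc16a3 by 0.85, Hif1a by 0.78, Aldoc by 0.76, Bnip3l by 0.74, P4ha1 by 0.73, Aldoa by 0.63, P4ha2 by 0.55, Pkm by 0.45, Vegfa by 0.44, Gpi1 by 0.37, Mxi1 by 0.36, Tpi1 by 0.34, Pfkl by 0.30 and Gapdh by 0.29 on the log2 scale. Lower were Hk2 (-0.81), Kdm3a (-0.58), Slc2a3 (-0.56), Ndrg1 (-0.45), Egln3 (-0.41) and Pfkp (-0.23). All genes showed such a difference at a rate of 49.1%, and each clone is 1 line. With Eno1 and Eno1b summed, the value for Eno1 was 0.53.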

How the results depend on the processing

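Calls past the threshold under all alternatives run were Hif1a, Higd1a, Slc16a3 and Eno1 in clone1 (4 of 10 calls), Hif1a, Bnip3, Bnip3l, Higd1a, P4ha2, Hk2, Aldoa and Aldoc in clone2 (8 of 18), 17 of 24 between the clones, Egln1, Vegfa, Ndrg1 and Ankrd37 in the libraries labelled shYAP (4 of 11), and Ndrg1 between the controls (1 of 3).

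At a threshold of 0.01, 4 members were lower in clone1 (756 genes passed in all), 7 lower in the libraries labelled shYAP (453) and 1 higher in Scrambled against shControl (145). Limma with a random effect of run gave 1 higher and 3 lower in clone1 (456 genes) and 9 higher in clone2 (2271). It gave 5 lower in the libraries labelled shYAP (298) and 1 higher in Scrambled (64). Against Scrambled, calls lost there were Egln3, Ndrg1, Gpi1, Pfkp, Aldoc and Pkm in clone1. In clone2 they were Egln1, P4ha1, Slc16a3, Pfkfb3, Pfkfb4 and Tpi1. In the libraries labelled shYAP they were Bnip3, Bnip3l, Kdm3a, Mxi1, Slc2a1 and Pfkfb3. One fit of all libraries gave 19 lower in the libraries labelled shYAP (2065). Against Scrambled, it ended the calls of Gpi1, Aldoc and Pkm in clone1 and of P4ha1 and Pfkfb3 in clone2. With the replicate block, 4 members were lower in clone1 and 18 in the libraries labelled shYAP, beside 5.83% and 7.82% of all genes. Against Scrambled, this block ended the calls of Gpi1, Pfkp and Pkm in clone1 and of Egln1, P4ha1, Slc16a3 and Tpi1 in clone2. The numbers do not pair these libraries. Leaving out a library in turn gave, in clone1, 1 to 2 members higher, 4 lower and 779 to 1025 genes in all. In clone2 it gave 9 to 13 members higher and 2904 to 2975 genes. In the libraries labelled shYAP it gave 5 to 7 lower and 412 to 515 genes. Between the controls it gave 1 to 2 members higher and 102 to 195 genes. With shControl in place of Scrambled, clone1 had 11 higher, 3 lower and 2503 genes, and clone2 19 higher, 3 lower and 4610 genes. Clone1 replicates 1 to 6 alone had 8 higher, beside 9.7% of all genes, and replicates 7 to 9 alone had 1, beside 6.54%. Against shControl replicates 8 to 10 alone, 1 member, Ldha, was higher in the libraries labelled shYAP (2229 genes). In Scrambled 12 were, beside 2.74% of all genes higher.

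Signs turned, past or short of the threshold, with shControl in place of Scrambled in clone1 for Epas1 (0.79), Ndrg1 (0.30), Gpi1 (0.032), Pfkp (0.043) and Tpi1 (0.25), with replicates 7 to 9 alone for Adm between the clones (0.95), with shControl replicates 8 to 10 alone for Bnip3l (0.47) and Aldoa (0.51) between the controls, and with Eno1 and Eno1b summed in clone2 (-0.032) and between the controls (0.30). The cause was not tested. Depth limits the low genes, chiefly Pfkfb4, Epas1, Adm and Mxi1.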
